A study of Homo sapiens with 9 samples.

Results

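Fragments of the mRNAs of replication-dependent histone genes were described here in the small RNA of K562 cells, a chronic myelogenous leukemia line with erythroid features. The genes were those of 2 clusters on chromosome 6 and 1 on chromosome 1. Such genes elsewhere were not members, and the other protein-coding genes below are all but those placed in these clusters. The members were all listed sncRNAs of either strand within chr6:26015000-26286000, chr6:27770000-27865000 and chr1:149780000-149865000 (GRCh37, hg19), and they numbered 8461 of 3688019 unique alignments in all. The cells were untreated, and 3 batches of them were sequenced after selection of library products for RNA of 20–40 nt. The batches were then pooled by the authors, so that no value below has a replicate error and no test between samples could be made. HEK293 samples of the same study were not analysed here. Reads are given as recovered reads, in which the deposited count of an alignment is divided by the number of listed alignments whose ends lie within a total shift of 3 nt. Intervals are 95% intervals (Wilson for shares, exact Poisson for counts) and cover counting error only, since the reads carry no molecular identifiers.

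Replication-dependent histone genes code for the linker histone H1 and the core histones H2A, H2B, H3 and H4, and they are expressed mainly in S phase, when new DNA has to be packed into nucleosomes. Their mRNAs have no introns and no poly(A) tail. The 3′ end is instead formed by a cut between a conserved stem-loop, which is bound by the stem-loop binding protein SLBP, and the histone downstream element, which pairs with the U7 snRNA. The stem-loop stays at the end of the mature mRNA and serves in its export, translation and decay.

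Models of 59 such genes (6 H1, 13 H2A, 14 H2B, 13 H3 and 13 H4) were placed in the clusters, and the 16 nt of the histone 3′ stem-loop were found in each of them, 22–67 nt past the stop codon with a median of 35 nt. The 9 variants of the stem-loop differ at few bases, and the 3 that carried most fragments are shown because the fragments at the 3′ end are read against them. Capitals mark the arms of the stem and lower case the loop.
Stem-loop shared by 35 genes of H1, H2A, H2B and H3: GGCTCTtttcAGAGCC
Stem-loop shared by 9 genes of H4: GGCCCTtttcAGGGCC
Stem-loop of H4C12, H4C14 and H4C15: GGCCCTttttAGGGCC

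Members had 12269 recovered reads, or 0.0257% of all 47670688 (0.0253–0.0262%). Of them, 5949 lay in the first cluster of chromosome 6, which holds 32 of the histone genes, 2778 in the second cluster with 16 genes, and 3542 in the cluster of chromosome 1 with 11 genes. Fragments were shallow as single species: 77.0% of member species rested on 1 read, against 73.6% of all listed alignments. As a check of the cell line, all 10 markers of K562 (such as the fetal globin genes and GATA1) had 11–360 sense reads, whereas the 4 T cell markers had 1–3, the 4 B cell markers 0–14 and the 3 genes of 9p21 2–7. The 4 epithelial markers had 3–99 reads, with KRT8 at 99 and KRT18 at 86. In reads of 18 nt or longer, their median was 24.6 per kb, against 20.6 for the K562 markers. The check therefore does not set K562 markers apart from this list.

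The fragments followed the strand of the histone mRNAs. A fragment was given to a gene when its midpoint fell within the mRNA, and 6265 reads (51.1%, 50.2–51.9%) were sense, 210 (1.71%, 1.50–1.96%) antisense and 5794 (47.2%, 46.3–48.1%) outside of histone mRNAs. Per kb, the sense strand of the histone mRNAs had 200.6 reads (195.7–205.6), the antisense strand 6.72 (5.84–7.70) and the remaining sequence of both strands 6.90 (6.72–7.08). The intervals of the antisense strand and of the surrounding sequence overlap, and the sense strand lay far above both. More sense than antisense reads were found for 55 of the 59 genes, and this was not counted for all protein-coding genes. The sense share was lower in the first cluster of chromosome 6 (47.6%, 46.4–48.9%) than in the second (53.9%, 52.1–55.8%) and on chromosome 1 (54.6%, 52.9–56.2%), whose intervals overlap.

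At least 1 sense read was found for 58 of 59 genes, a count not made for all protein-coding genes. At least 10 sense reads were found for 49 genes (83.1%), whereas 52.1% of all 20166 protein-coding genes passed that limit. With reads of 1 exact match only, 35 of the 59 histone genes passed it, and this was not computed for all protein-coding genes. Per kb of mRNA and counted in reads that had 18 nt or more, the median was 112.9 over the histone genes and 1.33 over the other protein-coding genes, and 50 of the 59 histone genes were above the 90th percentile of all protein-coding genes (13.2 per kb). The median of the histone genes was 60.6 with 1 exact match, a value not computed for the other genes. With at least 2 reads per species the medians were 54.3 and 0, and with the count as deposited 348.7 and 1.49. Genes are not replicates of a condition, and these medians are descriptions of 1 pooled library.

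By class, the median per kb was highest for H4 (261.7), followed by H2A (149.5), H3 (120.1), H2B (86.6) and H1 (63.6), but the genes of each class were spread so widely that these orders overlapped (H4 from 0 to 492.3, H1 from 0 to 391.2). H2A held the largest part of the sense reads, with 2079 reads or 33.2%. H4 had 1479 reads, H3 1119, H2B 888 and H1 700.

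Linker histone H1 binds the DNA between nucleosomes. H1-2 (chr6:26055968-26056698) had 364 sense reads (327.6–403.4), H1-4 206 (178.8–236.1) and H1-5 68 (52.8–86.2), and none of these intervals overlap. H1-1 had 1 read and H1-6, the testis-specific member, had 0 sense reads (0–3.69). Thus all but 1 of the class's 700 reads came from 4 genes.

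In H2A, H2AC20 (chr1:149858468-149858961) was the gene with the most sense reads of all 59, with 433 (393.2–475.8), and it was followed by H2AC17 (chr6:27860477-27860963) with 343 (307.7–381.3) and H2AC8 with 257 (226.5–290.4). Every gene of H2A had at least 41 reads. In H2B, which forms dimers with H2A, H2BC21 (chr1:149856009-149858232) had 249 reads (219.0–281.9), of which 93 lay past the stem-loop in the long 3′ UTR annotated for this gene alone. H2BC8 had 174 (149.1–201.9) and H2BC17 84 (67.0–104.0).

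In H3, H3C2 (chr6:26031817-26032327) had 313 reads (279.3–349.7), H3C12 147 (124.2–172.8) and H3C10 136 (114.1–160.9), and the intervals of the latter pair overlap. H3C8 had 1 read. In H4, H4C2 (chr6:26027124-26027511) had 229 reads (200.3–260.7), H4C14 208 (180.7–238.3) and H4C5 179 (153.7–207.2), so that neighbours in this order do not differ beyond counting error. H4C13 had 1 read and H4C7 2 reads.

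Paralogs limit the counts of single genes. Coding sequences of H4 had a median identity of 83.7% between pairs of equal length, those of H2B ranged up to 94.2%, and the pairs H2AC18/H2AC19, H3C14/H3C15, H4C14/H4C15 and H4C11/H4C12 were identical. Of the sense reads, 61.4% (60.2–62.6%) matched the genome exactly at 1 position, although unique mapping is stated in the methods of the study. The share was 89.1% in H1, 77.1% in H2B, 61.3% in H3, 59.5% in H2A and 41.6% in H4. The same sequence was listed in more than 1 histone gene for 283 sequences with 963 reads. Of the 58 genes with sense reads, 17 had none with 1 exact match. In 10 of these 17 there were 1–11 reads, so that all fragments of genes such as H3C3, H2BC6 and H4C6 also match elsewhere. The other 7 had 48–222 reads and were H2AC14 and both genes of 3 of the identical pairs. For H2AC20, H1-2, H3C2, H3C12 and H3C10 the share with 1 match was 90.4–94.6%, and the counts of these genes rest little on paralogs.

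Fragments were concentrated at the 5′ end of the mRNA. The 5′ UTR makes up 7.42% of the length of the 59 mRNAs but held 2150 reads, or 34.3% of the sense reads (33.2–35.5%), which is 927.5 per kb. The CDS held 3672 reads (58.6%, 57.4–59.8%) at 154.7 per kb, the 3′ UTR before the stem-loop 159 reads (2.54%) at 72.1 per kb, and the stem-loop 191 reads (3.05%, 2.65–3.50%) at 202.3 per kb. Any overlap with the stem-loop put a fragment there, whereas the UTRs and the CDS were assigned by its midpoint. The stem-loop's value per kb is raised by this rule and cannot be ranked against the other parts. All 16 nt of the stem-loop were held by 36 reads. Fragments that began no later than nt 60 of the mRNA, the 31 reads from before the annotated start included, had 3398 reads, or 54.2% of the sense reads (53.0–55.5%), and 60.3% (58.8–61.9%) of those with 1 exact match. They are called fragments of the first 60 nt below.

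The boundary was sharp. From 1 to 20 nt there were 1490 reads, from 21 to 40 nt 1459, from 41 to 60 nt 418 and from 61 to 80 nt 61. Few fragments marked the start site itself: 102 reads (1.63%) began within 1 nt of it and 31 before it. The fragments of the first 60 nt had a median length of 19 nt, like the later ones, and their 3′ ends lay between 32 and 54 nt (quartiles) with a median of 42 nt. The 5′ UTR has a median of 37 nt over the genes (12–93 nt). How many of these fragments ran across the start codon was not counted.

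Genes differed in this share beyond counting error. It was 90.3% in H2AC20 (87.1–92.7%), 77.3% in H2AC17 (72.5–81.4%), 75.1% in H2AC8, 72.4% in H2BC8 and 70.7% in H3C12, but 33.2% in H1-2 (28.6–38.2%), 31.8% in H4C5 (25.5–39.0%) and 14.2% in H4C8 (9.0–21.5%). By class it was 66.6% in H2A, 54.8% in H2B, 47.7% in H4, 46.2% in H3 and 43.3% in H1. In 23 of the 49 histone genes with at least 10 sense reads, more reads began in the first 60 nt than in all of the remaining mRNA, and this was so for 7.87% of the protein-coding genes with at least 10 sense reads. The median share per gene was 49.2% for the histone genes and 8.33% for the others, which include the replacement histones described at the end. Histone mRNAs are short, with a median of 487 nt against 2873 nt for the others, and the first 60 nt make up 11.3% of their summed length. The part of mRNA length in the difference was not tested.

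All species of histone mRNAs with more than 16 reads lay in these leaders. As examples of the 5′ signal in different classes, 5 leader species from 4 genes are shown. Capitals mark the start codon where a fragment reaches it.
H2BC8, chr6:26216875-26216892, minus strand: ctgttattgttttctgac
H2AC20, chr1:149858485-149858503, plus strand: aggttctgagcgttgtctg
H2AC20, chr1:149858478-149858494, plus strand: tgttgcgaggttctgag
H2AC18, chr1:149814283-149814301, minus strand: aggcaggagtttctctcgg
H4C11, chr6:27791894-27791911, plus strand: ttgctcgtcATGtctggc

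They had 41, 37, 35, 24 and 16 recovered reads in this order. A species of H1-2 at nt 267 of the CDS (chr6:26056375-26056390, 1 exact match) also had 16 reads, as many as that of H4C11. The H2BC8 species began 25 nt into the mRNA, and those of H2AC20 at 18 and 11 nt. A species of H2AC20 that is 1 nt shorter than the one from 11 nt (31 reads) and a 22 nt species from 30 nt (25 reads) were also among the 10 member species with the most reads, which together held 3.33% of member reads. The sequences of H2AC18 and H4C11 match the genome at 2 positions, and the former was listed in H2AC19 as well, with 12 reads. Starts were shared within classes: in H4, 67 reads of 8 genes began 9 nt before the start codon, and in H2A, 79 reads of 7 genes began 36 nt before it. In the coding part of H3, 42 reads began at nt 234 of the CDS in 6 genes, 21 of them in H3C15. Shared starts are in part the same sequence listed in paralogs, as the leading sequence at nt 234 matches the genome at 4 positions and the 17 species there have 10 sequences.

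Sense histone fragments had a median length of 19 nt (quartiles 18 and 22), against 22 nt (18 and 23) over all listed reads. Sense reads of other protein-coding genes had a median of 23 nt, and 90.8% of them had 20–24 nt. Reads under 18 nt were not more frequent, with 21.9% of the sense histone reads and 24.4% of all listed reads. Of the sense histone reads, 31.4% had 18–19 nt, against 11.0% of all listed reads, and 14.1% had 25 nt or more, against 4.12%. Reads of 20–24 nt, the range of miRNAs, made up 32.5% of the sense histone reads and 60.5% of all listed reads. The length profile was nearly the same for reads of the clusters outside of histone mRNAs, which also had a median of 19 nt. Fragments of 30 nt or more made up 3.97% of the reads that began in the first 60 nt and 2.23% of those that began later. A 33 nt species of H1-2 from 13 nt before the start codon had 10 reads. As to the first base, 11.3% of the reads (10.3–12.4%) from nt 1 to 60 of the mRNA began with G, which makes up 25.6% of the bases there, and 11.8% (10.6–13.1%) of those that began in the CDS beyond nt 60, where G makes up 29.95%. T was more frequent as the first base than in the sequence from nt 1 to 60 (43.4% against 30.99%) but not in the CDS beyond (16.2%, 14.8–17.7%, against 15.8%). There, C (41.6%, 39.6–43.5%, against 30.1%) and A (30.4%, 28.7–32.3%, against 24.1%) were more frequent as the first base.

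At the 3′ end, 191 reads of 153 species in 35 genes overlapped the stem-loop. The genes with the most of these reads were H2AC19 (30), H4C14 (18), H2AC18 (15), H4C15 (12) and H2BC21 (11), which hold 86 of them together, but H2AC18 and H2AC19, like H4C14 and H4C15, share their sequence. Of the stem-loop reads, 30.4% (24.3–37.2%) had 1 exact match. By their 3′ ends they fell into separate sets. In 116 reads the 3′ end lay within the stem-loop, with 55 in its 5′ arm, 24 in the loop and 37 in the 3′ arm. The remaining 75 reads ran past its last base, and 61 of these (81.3%, 71.1–88.5%) ended exactly 3 nt after it. No read ended 0–2 nt after the last base, and 14 ended 4 nt or more after it.

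The end at 3 nt was listed in many genes, in part as the same sequence in paralogs, so that the number of genes with this end is not settled. It was found in 51 species and 39 different sequences, listed in 25 genes, whose lengths ran from 13 to 42 nt with a median of 23 nt (quartiles 15 and 26), and 11 of the 61 reads had 1 exact match. All 16 nt of the stem-loop were held by 36 reads of 33 species in 19 genes. Of the fragments that end at 3 nt, 4 are shown to make that boundary visible, with the bases of the stem-loop in capitals.
H3C13, chr1:149784780-149784803, minus strand, 3 reads: ctaaaGGCTCTTTTCAGAGCCact
H4C14, chr1:149804589-149804614, plus strand, 2 reads: tcccaaaGGCCCTTTTTAGGGCCgac
H4C15, chr1:149832332-149832345, minus strand, 5 reads: TTTTTAGGGCCgac
H3C2, chr6:26031822-26031836, minus strand, 2 reads: CTTTTCAGAGCCacc

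The H3C2 species is the member of the clusters that the study put into its overexpression assay. It had a deposited RPKM of 2.46 and covers the loop and the 3′ arm, and its 15 nt match the genome exactly at 38 positions, so that its reads cannot be given to H3C2 alone.

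A separate set of fragments lay just past the end of the mature mRNA. In the 4–40 nt after the stem-loop, 313 species with 496 reads began on the sense strand of 39 genes, against 116 reads from 41 to 80 nt. Of the 496 reads, 392 had 1 exact match. Their starts lay mostly at 8–21 nt (429 reads, 86.5%), with a median of 17 nt, and their ends had a median of 37 nt, and 174 reads of 31 genes ended at 35–37 nt. Their median length was 23 nt (quartiles 20 and 25), longer than that of the sense fragments in the mRNA. They did not join the fragments of the mRNA: 8 reads ran from 3 nt past the stem-loop or earlier to more than 5 nt past it, no stem-loop fragment ended beyond 14 nt and no fragment of the downstream set ended before 24 nt.

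This stretch holds the histone downstream element. The letters GAGNTG, which are common to many of these elements, were searched for on the sense strand in the 40 nt from 4 nt past the stem-loop. They were found in 19 of 59 genes (32.2%), in all cases at 20–22 nt past the stem-loop, and in 4.38% of the 40-nt windows of both strands of the clusters. The motif was held by 247 of the 496 downstream reads (49.8%, 45.4–54.2%), from 14 genes, and by 174 of 417 without H2AC4. The following 4 fragments are shown with the motif in capitals.
H2AC4, chr6:26033286-26033308, minus strand, 27 reads: aatGAGCTGttgtgctttggatt
H2AC18, chr1:149813753-149813776, minus strand, 6 reads: aataaaaGAGTTGttaatgctggc
H4C14, chr1:149804628-149804648, plus strand, 6 reads: gagGAGTTGgacacttgactg
H4C3, chr6:26104570-26104596, plus strand, 5 reads: gtcgtttaaaGAGCTGaaatgcgttgc

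The H2AC4 species was among the 10 member species with the most reads. H2AC4 had 79 downstream reads but 52 sense reads in its mRNA, whereas H2AC20 had 8 reads from 4 to 120 nt past the stem-loop and 433 in the mRNA. By class, the downstream set had 201 reads in H2A, 137 in H4, 67 in H3, 63 in H1 and 28 in H2B. A match to GAGNTG is a description of the sequence, and its absence in the other genes says only that these letters are not in the window.

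Many H2A and H2B genes lie head to head, with both starts in a short shared promoter. There were 8 such pairs, with 194–246 nt between the starts. H2A had more sense reads than its partner in 7 of the 8 pairs, and in 6 of them the intervals of the counts did not overlap. Reads with 1 exact match gave the same numbers, 7 and 6, but for other pairs: H2AC14 then had 0 reads and H2BC14 1, against 48 and 5 before, whereas H2AC7 (80) and H2BC7 (46) were then apart. The largest count was that of H2AC20 (433 reads) beside H2BC21 (249), and H2AC17 (343) stood beside H2BC17 (84). In H2AC15 and H2BC15 the counts were nearly equal, with 77 and 78. In the 300 nt before the starts of all 59 genes, outside of histone mRNAs, 317 reads lay on the strand of the gene and 251 on the other strand. Of these 251 reads, 237 lay before the 41 genes with no head-to-head partner of any class within 1000 nt.

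Antisense fragments were found for 39 genes, and H2AC21 had the highest count, with 77 of the 210 reads, followed by H2AC20 with 16 and by H2AC6 and H2BC21 with 9 each. H2AC21 also had 64 sense reads (49.3–81.7), so that its strands do not differ beyond counting error. It is arranged tail to tail with H2AC20, with 57 nt between the mRNA ends, and 34 of the 77 reads lay within 200 nt past the end of H2AC20. BOLA1, which starts within the H2AC21 sequence on that strand, had 19 reads in its exons. Without H2AC21, the antisense strand had 4.33 reads per kb (3.62–5.13), below the surrounding sequence.

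Outside of the histone mRNAs, single species stood out. The member with the most reads of all was a 17 nt species on the minus strand at chr6:27817840-27817856, shown because it exceeds every histone fragment: aaggtaattgagatgta. It had 130 recovered reads and 1 exact match, and lay 10952 nt from the nearest histone mRNA, H2BC15, antisense to an annotated intron of that gene. An 18 nt species on the plus strand at chr6:26261661-26261678 had 36 reads and lay in introns of transcripts of unknown coding status, and a 19 nt species at chr6:26040298-26040316 had 23 reads and no annotated gene. Without the first of these, the sense share of the clusters was 51.6%.

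Among the annotated genes of the clusters that are no replication-dependent histone genes, 12 had at least 10 reads in exons on their strand. ENSG00000291338, a long transcript whose type is not settled in the annotation, had 223, the lncRNA ENSG00000289117, which runs away from the start of H2BC5 on the other strand, 92, and the lncRNAs ENSG00000290792 and ENSG00000290791 of chromosome 1 59 and 43. RP11-196G18.23 had 30 reads, ENSG00000282988 27, BOLA1 19, ENSG00000289447 14, the pseudogenes ENSG00000217275, H2BC19P and HIST2H2BC 13 each, and HFE, a regulator of iron uptake, 12.

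Replacement histones, which are made outside of S phase as well and have polyadenylated mRNAs with introns in most cases, had fewer fragments per length at the median. Of 10 genes, 9 had at least 10 sense reads, and the median per kb was 17.4 on the same scale. H2AX, which forms both a stem-loop and a polyadenylated mRNA, had 118.7 per kb and H2AZ1 113.2 on that scale. At all lengths H2AX had 1108 sense reads, more than any of the 59 genes of the clusters, or 696.0 per kb against a median of 143.9 over these genes, and 189 of its reads had 18 nt or more. Of the sense reads of replacement histones, 71.5% (69.3–73.5%) were of the first 60 nt, above the 54.2% of the clusters, and 46.3% (42.5–50.1%) without H2AX, in which 959 of 1108 reads lay there. Genes for the 3′ processing and decay of histone mRNA had a median of 5.31 per kb, and all 15 had at least 10 sense reads, with SLBP at 22.7 per kb. No fragment was listed in RNU7-1, the gene of the U7 snRNA. The 86 genes of ribosomal proteins, which are expressed in every cell, had a median of 57.1 per kb.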

How the data were processed

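Single-end sequencing (50 nt) of small RNA from 3 batches of K562 cells was done by the authors. Per the methods of the study and the submitters' processing notes, alignment used Bowtie2 2.2.9 and GRCh37 (hg19), reads that map uniquely were kept, and the batches were pooled. The deposited read counts are whole numbers per unique alignment, and the deposited RPKM was made by the authors with a denominator of 54140681 for every alignment. As the deposited count was a whole multiple of the number of near neighbours (end shift of at most 3 nt in total) for 100% of alignments with neighbours, it was divided by that number.

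Gene models were taken from GENCODE release 44 on GRCh37 for 54 genes. The other 5 (H2BC7, H2BC8, H4C2, H4C6 and H2AC18) were placed by matching RefSeq promoter sequences (tables of GRCh38.p14) to GRCh37, with the mRNA ending 5 nt past the stem-loop. The stem-loop was searched within 200 nt of the CDS end. Exact matches of each member were counted in GRCh37 on both strands.

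The text names the 10 species with the most reads, the 3 leading genes of each class and those with 0 reads, the 3 leading antisense genes, the 5 leading stem-loop genes, the assay species, other genes with at least 10 reads, and members of fixed lists, of which 1 replacement histone is not reported here. Genes beyond this rule (such as H4C8, H4C11, H2AC4, H4C3, H2AC14 and H3C13) were chosen after their values were seen. Members, lists and tests were chosen with earlier results of these data known. Alternatives were the deposited count, 18 nt or longer, 1 exact match, at least 2 reads, any overlap, all 16 nt of the stem-loop and the removal of leading species or genes. Computations ran in Python 3.11.15 with pandas 2.3.3, scipy 1.17.1, matplotlib 3.10.9, numba 0.67.0 and numpy 2.4.6, and the steps were tested on simulated data.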

Additional observations from a re-analysis of the deposited data

How the results depend on the processing

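Of 44 alternatives, 18 left a value within its counting interval or its count within 1.5 times and 26 moved it. The number of histone genes with at least 10 sense reads was 35–50 under the alternatives that kept this limit. It was lowest with 1 exact match. With a limit of 1 sense read, 58 genes passed. With the count as deposited, the clusters held 0.00541% of all reads, 72.4% of cluster reads were sense histone reads, 1.77% of these overlapped the stem-loop, the median per kb was 348.7, 74.9% began in the first 60 nt, and 62.0% of downstream reads held GAGNTG; this count is raised for species with near neighbours by its construction. With 1 exact match, these values were 0.0165%, 49.0%, 1.51%, 60.6, 60.3% and 43.6%, the median length was 20 nt, and 68.8% of reads past the stem-loop ended 3 nt after it. With at least 2 reads per species they were 0.0128%, 57.0%, 2.07%, 54.3, 67.7% and 55.5%, and the share that ended 3 nt past the stem-loop was 88.9%. With 18 nt or longer, the clusters held 0.0263% and the median length was 20 nt. Reads with all 16 nt of the stem-loop made up 0.575%. Without H2AC20, 51.6% began in the first 60 nt, and without H2AC4, 41.7% of downstream reads held GAGNTG. The alternatives for the shares of the first 60 nt, of the end 3 nt past the stem-loop and of GAGNTG were chosen after seeing the data.

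No paired analysis was possible because the deposited values pool the 3 batches. For the same reason no spread between batches is known. Most species rest on 1 read, so that single species are less certain than sums over genes. Counts of genes with identical paralogs are uncertain, and the ends of 59 gene models limit the positions. Library products were selected for RNA of 20–40 nt before sequencing, so that whole histone mRNAs were not measured. Shorter fragments were still present: 21.9% of the sense histone reads had under 18 nt and 31.4% had 18–19 nt.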
